A study of Rattus norvegicus with 14 samples.

Results

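The genes described here encode the enzymes and regulators that build cholesterol and fatty acids from acetyl-CoA. A list of 32 symbols was chosen for the mevalonate and sterol pathway, its control by SREBP factors, and cytosolic acetyl-CoA and fatty acid synthesis. The choice was made with earlier results of these data known, so shares of the list set beside all genes are descriptions. Each symbol was looked up in the deposited expression files. All 32 were found among 22601 genes. Hippocampal RNA of wild-type Wistar rats weighing 180 to 220 g was sequenced in 3 groups. Control rats (n = 4) received vehicle. The PTZ group (n = 5) was a seizure model made with PTZ, the convulsant pentylenetetrazole, which antagonises the GABA-A receptor, and received vehicle. The PTZ + Q808 group (n = 5) was the same model given Q808, which the labels name by this code. The labels state no age, sex, dose or sampling time. Levels are in FPKM, fragments scaled to transcript length and library depth, which allows comparison between genes of different length.

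Cholesterol in the brain is made locally, because lipoproteins of the blood do not cross the blood-brain barrier, and much of it is held in myelin. Citrate leaves mitochondria through the carrier Slc25a1 and is split to acetyl-CoA by Acly, which feeds both fatty acid synthesis and the mevalonate pathway. The pathway runs from Hmgcs1 to farnesyl diphosphate, made by Fdps, and Fdft1 then commits the chain to squalene and sterols. SREBP transcription factors raise most of these genes together when sterols are low. Scap carries SREBP to the Golgi for activation, and Insig1 and Insig2 hold it back in the endoplasmic reticulum.

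The promoters of these genes are shown because SREBP acts together with the factors NF-Y and Sp1, whose short binding motifs lie close to the start site in many members. RefSeq windows of GRCr8, from 250 bases before to 50 after the start, were matched for 25 of the 32 genes. The NF-Y box CCAAT (either strand, ATTGG on the other) was in 19 of 25 (76%), against 38.6% of 10234 tested genes with a window and 39.6% of all 27457 genes. The Sp1-like motif GGGCGG, searched on both strands, was in 20 of 25 (80%), against 64.2% of tested and 36.002% of all genes. Matches of the motif can overlap, as the 2 in Dhcr7 do. The SRE-like motif TCACNCCAC was in 0 of 25 and in 1.21% of tested genes, and the E-box form ATCACGTGA in 0 of 25 and in 0.606% of tested genes. Neither of the last letter strings was in these windows, and a match is a description and not a shown site. The 250 bases before the start are given for Slc25a1 (chr11:96559804-96560053, plus strand) and Dhcr7 (chr1:208444184-208444433, plus strand), whose levels passed the test described below. Mvk (chr12:47819504-47819753, minus strand) is added, after its motifs were seen, for its 5 CCAAT boxes. Capitals mark CCAAT and GGGCGG on either strand. The Dhcr7 bases hold 0 CCAAT boxes. Fdft1, whose level also passed the test, had no window.
Slc25a1: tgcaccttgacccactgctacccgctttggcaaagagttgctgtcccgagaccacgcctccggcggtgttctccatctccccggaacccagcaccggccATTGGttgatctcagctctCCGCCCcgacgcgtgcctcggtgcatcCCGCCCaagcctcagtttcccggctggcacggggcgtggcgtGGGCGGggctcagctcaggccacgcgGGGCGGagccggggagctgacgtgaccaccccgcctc
Dhcr7: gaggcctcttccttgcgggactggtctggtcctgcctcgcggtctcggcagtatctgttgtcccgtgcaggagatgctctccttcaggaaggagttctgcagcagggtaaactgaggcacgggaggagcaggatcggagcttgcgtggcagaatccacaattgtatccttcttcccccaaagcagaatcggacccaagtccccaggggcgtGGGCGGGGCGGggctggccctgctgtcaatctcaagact
Mvk: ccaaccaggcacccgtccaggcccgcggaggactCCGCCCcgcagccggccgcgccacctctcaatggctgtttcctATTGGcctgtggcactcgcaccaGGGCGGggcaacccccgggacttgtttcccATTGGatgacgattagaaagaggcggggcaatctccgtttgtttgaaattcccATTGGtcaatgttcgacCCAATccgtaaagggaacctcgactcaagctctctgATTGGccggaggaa

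Across the 14 libraries the sum of FPKM ran from 383126 to 419358. Steps between low values gave each library's depth relative to control replicate 1 as 0.858 to 1.04, and the same steps returned whole reads for each member, from 12 to 7798 reads per gene and library. The mean log2(FPKM + 1) of 5 hippocampal markers (Prox1, Zbtb20, Wfs1, Spink8 and Neurod6) lay between 3.37 and 3.93 over the libraries, although Spink8 was nearly undetected (group means of 0.117 to 0.208 FPKM). Some libraries stood apart. Control replicate 2 held 29.4 FPKM of the striatal gene Drd2, against 1.12 to 2.43 in the other 13. PTZ + Q808 replicate 3 held 395 FPKM of the pituitary hormone gene Prl, against at most 0.898. The choroid plexus gene Ttr was low in control replicate 3 (54.5 FPKM), PTZ replicate 2 (113) and PTZ + Q808 replicate 1 (329), against at least 1315 elsewhere. The Y-linked transcripts examined all reached 1 FPKM in 8 libraries, and not all did in the others. The 8 were control replicates 1 and 2, PTZ replicates 1, 2 and 5, and PTZ + Q808 replicates 1, 2 and 4. The rats may therefore be of both sexes, which the labels do not state. The transcripts were measured in bulk tissue, in which fewer cells of a type and less RNA per cell cannot be told apart.

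Synthesis genes were expressed over a wide range of levels. By mean over all libraries the most abundant were Hmgcs1, the first committed enzyme of the mevalonate pathway (111 FPKM), Fdps (96.3), the sterol methyl oxidase gene Msmo1 (91.3), the lanosterol demethylase gene Cyp51 (75.2) and Acly (66.7). Fdps and Msmo1 overlapped in range, at 85.3 to 120 and 81.6 to 108 FPKM, and so did most neighbours in this order. The least abundant were the steroid transfer gene Stard4 (4.77), Hsd17b7 (3.51) and the fatty acid elongase gene Elovl6 (0.713). Elovl6 reached 1 FPKM in 2 libraries, short of the 4 required for testing, which leaves 31 tested members. Rats also express Scd2, a second desaturase gene that was not on the list, and it was far more abundant (750 FPKM in control) than Scd (9.42 FPKM). The sources used here do not say how reads shared by such similar copies were assigned, so their split is uncertain.

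Replicates agreed closely for most members. The coefficient of variation (SD divided by mean) had a median over members of 7.67% among controls, 7.57% among PTZ libraries and 8.64% with Q808. It was lowest for Scap in control (0.71%), where the 4 libraries lay between 29.3 and 29.7 FPKM. Idi1 (32.2%) and Insig1 (29.2%) varied most among tested members in the PTZ group.

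Most synthesis genes had slightly lower levels after PTZ, with or without Q808, and the shifts were small. Control replicate 4 resembled the exposed libraries, with 25 of 32 members below the control mean (median difference -0.07 in log2). In control replicates 1 to 3 the number below was 11 to 14, and in the exposed libraries 22 to 29 (medians of -0.07 to -0.19). In PTZ + Q808 versus control 3 genes fell: Slc25a1, Fdft1 and the last enzyme of cholesterol synthesis, Dhcr7. That is 3 of 31 (9.68%), with 2.87% of all 12744 tested genes called in either direction and 0.934% called lower (limma, Benjamini-Hochberg adjusted p under 0.05). Fitted means were lower for 26 of 31 members, against 55.3% of all genes. The median log2 change was -0.15, against -0.02 over all genes. Unadjusted p was under 0.05 for 12 members with lower means, against 10.7% of all genes, and for 1 with a higher mean, against 10%. Libraries did not overlap with control for 6 of 31 members (Slc25a1, Fdft1, Dhcr7, Fasn, Mvk and Scap), all lower, against 4.17% of all genes. In PTZ versus control 0 of 31 members passed (0.0314% of all genes were called), although 27 of 31 had lower means, against 53.7% of all genes. Unadjusted p was under 0.05 for 8 of 31 members there, all lower, against 3.92% of all genes. Groups did not overlap for 5 of 31 (Slc25a1, Fdft1, Dhcr7, Acss2 and Fasn), all lower, against 1.59% of all genes, and the median log2 change was -0.11, against -0.01.

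**Figure D1:**
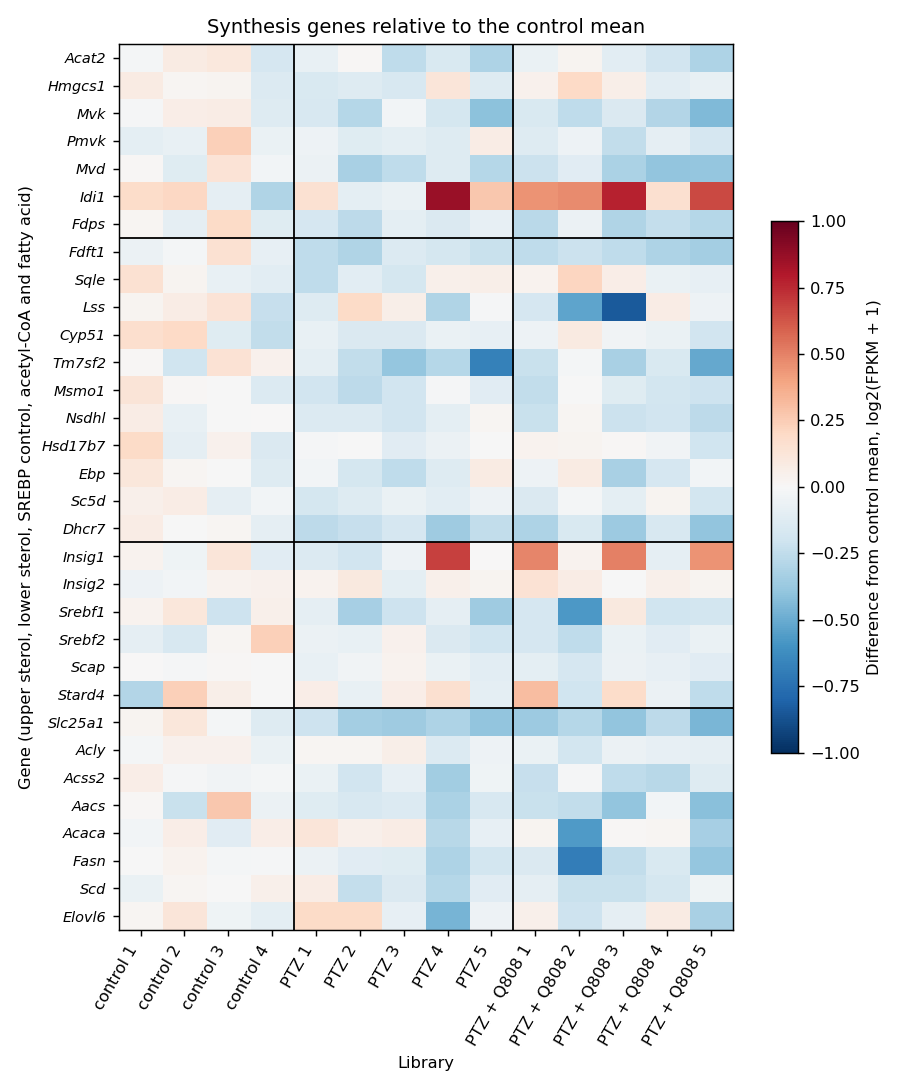
Rows are the 32 synthesis genes in 4 blocks by role, columns are the 14 libraries, and color is the difference from the control mean in log2(FPKM + 1). Slc25a1, Fdft1 and Dhcr7 are below the control mean in all 10 PTZ and PTZ + Q808 libraries, while Idi1 and Insig1 are red in some of them.

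The average of both PTZ-exposed groups was also set against control. Slc25a1 and Fdft1 fell, 2 of 31 members, with 0.62% of all genes called and 0.149% called lower. Means were lower for 27 of 31 members, against 55.4% of all genes. Unadjusted p was under 0.05 for 13 members with lower means, against 8.49% of all genes, and for 1 with a higher mean, against 8.58%. Without overlap, all 10 exposed libraries lay below all 4 controls for Slc25a1, Fdft1, Dhcr7 and Fasn, 4 of 31 members, against 0.753% of all genes. The comparisons with control share the same 4 control libraries, so their values are not independent of each other.

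The number of members that passed depended on single libraries, and so did the number called over all genes. With all libraries the latter was 366 in PTZ + Q808 versus control and 79 in the average. In PTZ + Q808 versus control 0 members passed without control replicate 1 or PTZ + Q808 replicate 1 (17 and 32 over all genes). The member count was 1 without control replicate 3 or PTZ + Q808 replicate 3 or 5 (40, 72 and 38 over all genes). It was 6 without PTZ + Q808 replicate 2 (347 over all genes). For the average it was 0 without control replicate 1 or 3 (2 and 6 over all genes). Leaving out any of 8 others brought it to 1: replicates 2 and 4 of control, 2, 4 and 5 of PTZ, and 1, 3 and 5 of PTZ + Q808. Over all genes 7 to 70 were then called. In both comparisons 0 members passed without the 3 libraries low in Ttr (0 and 4 over all genes). The member count was also 0 without the 2 libraries holding striatal or pituitary transcripts (57 and 28 over all genes). With the replicate number as a block it was 0 as well (4 and 4 over all genes). The median log2 change stayed between -0.16 and -0.13 in PTZ + Q808 versus control over all 28 alternatives.

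Slc25a1, which exports citrate from mitochondria to the cytosol (gene identifier 29743), had the lowest unadjusted p of the 31 members in all 3 comparisons with control. Control libraries 1 to 4 held 27.2, 28.9, 26.3 and 24.3 FPKM. PTZ libraries 1 to 5 held 22.9, 20.8, 20.5, 21.3 and 20.02 FPKM, and PTZ + Q808 libraries held 20.4, 21.7, 20.06, 22.04 and 19.1. The lowest control lay above every other library, and the PTZ and PTZ + Q808 ranges overlapped. Controls averaged 26.7 ± 1.92 FPKM (SD, n = 4), PTZ libraries 21.1 ± 1.11 (SD, n = 5) and PTZ + Q808 libraries 20.7 ± 1.21 (SD, n = 5). In PTZ + Q808 versus control it fell by 0.35 on the log2 scale (SE 0.0603, limma adjusted p = 0.0171), which is 0.783 of the control level on the log2(FPKM + 1) scale. In PTZ versus control the value was -0.32 (adjusted p = 0.154). The call in PTZ + Q808 versus control held in 23 of 28 alternatives and was lost without control replicate 1, without PTZ + Q808 replicate 1, without either set of doubted libraries, and with the block. A term for libraries with Y-linked transcripts brought PTZ versus control to an adjusted p of 0.0479.

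Fdft1 encodes squalene synthase (gene identifier 29580), the first step committed to sterols. Control libraries held 42.8, 43.9, 49.7 and 41.96 FPKM in replicate order. PTZ libraries held 37.2, 35.98, 40.5, 39.2 and 38.0 FPKM, and PTZ + Q808 libraries 37.1, 38.2, 37.2, 35.7 and 35.0. All 10 exposed libraries were below the lowest control, and control replicate 3 was the highest of all. In PTZ + Q808 versus control Fdft1 fell by 0.28 (SE 0.0548, limma adjusted p = 0.024), and in PTZ versus control the log2 change was -0.22 (adjusted p = 0.335). The first call held in 19 of 28 alternatives and was lost without control replicate 1 or 3, without PTZ + Q808 replicate 1, 3 or 5, without either set of doubted libraries, with the block, and when only the 2 groups were fitted.

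Dhcr7 encodes 7-dehydrocholesterol reductase (gene identifier 64191), which makes cholesterol from its direct precursor. Control libraries held 13.9, 13.2, 13.4 and 12.3 FPKM. PTZ libraries held 10.8, 11.1, 11.6, 10.1 and 10.9 FPKM, and PTZ + Q808 libraries 10.4, 11.8, 10.05, 11.7 and 9.77. Again no exposed library reached the lowest control. Dhcr7 fell by 0.28 in PTZ + Q808 versus control (SE 0.0642, limma adjusted p = 0.0374). The log2 change was -0.25 in PTZ versus control (adjusted p = 0.335) and -0.26 in the average (adjusted p = 0.0531). The call in PTZ + Q808 versus control held in 14 of 28 alternatives. Leaving out any 1 of control replicates 1 to 4, PTZ replicate 2, or PTZ + Q808 replicate 1, 3 or 5 ended it. Over the 14 libraries left out in turn, the limma adjusted p was between 0.024 and 0.114. The call was also lost without either set of doubted libraries, with the block, without a filter, and when only the 2 groups were fitted. With the mean of myelinating oligodendrocyte markers as a covariate it was lost too (limma adjusted p = 0.0734).

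Among the 7 genes of the upper pathway, from acetoacetyl-CoA to farnesyl diphosphate, 0 passed in any comparison. Means were lower than control for 6 of 7 in PTZ and 5 of 7 in PTZ + Q808. Mvd, which forms isopentenyl diphosphate, came nearest. It held 21.99, 19.9, 24.01 and 21.4 FPKM in control, 20.9, 17.2, 18.1, 19.8 and 17.7 in PTZ, and 18.7, 20.1, 17.3, 16.4 and 16.4 in PTZ + Q808. Groups overlapped at control replicate 2, and the log2 change in PTZ + Q808 versus control was -0.28 (limma adjusted p = 0.0589). Mvk, encoding mevalonate kinase, held 16.4, 17.4, 17.5 and 15.1 FPKM in control. It held 14.7, 13.4, 16.2, 14.6 and 12.2 in PTZ and 14.8, 13.8, 14.9, 13.4 and 11.9 in PTZ + Q808, where every library was below the lowest control (log2 change -0.26, adjusted p = 0.0959). Fdps held 107, 99.2, 120 and 96.7 FPKM in control, 93.9, 87.8, 98.3, 95.3 and 99.6 in PTZ, and 87.4, 101, 85.3, 89.3 and 86.4 in PTZ + Q808. Its groups overlapped in both comparisons, with a log2 change of -0.23 in PTZ + Q808 versus control (adjusted p = 0.0822). Hmgcs1 had values of -0.09 in PTZ and 0.03 in PTZ + Q808 against control. For Pmvk, the kinase after Mvk, they were -0.06 and -0.14, and for the acetoacetyl-CoA thiolase gene Acat2 -0.16 and -0.13.

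**Figure D2:**
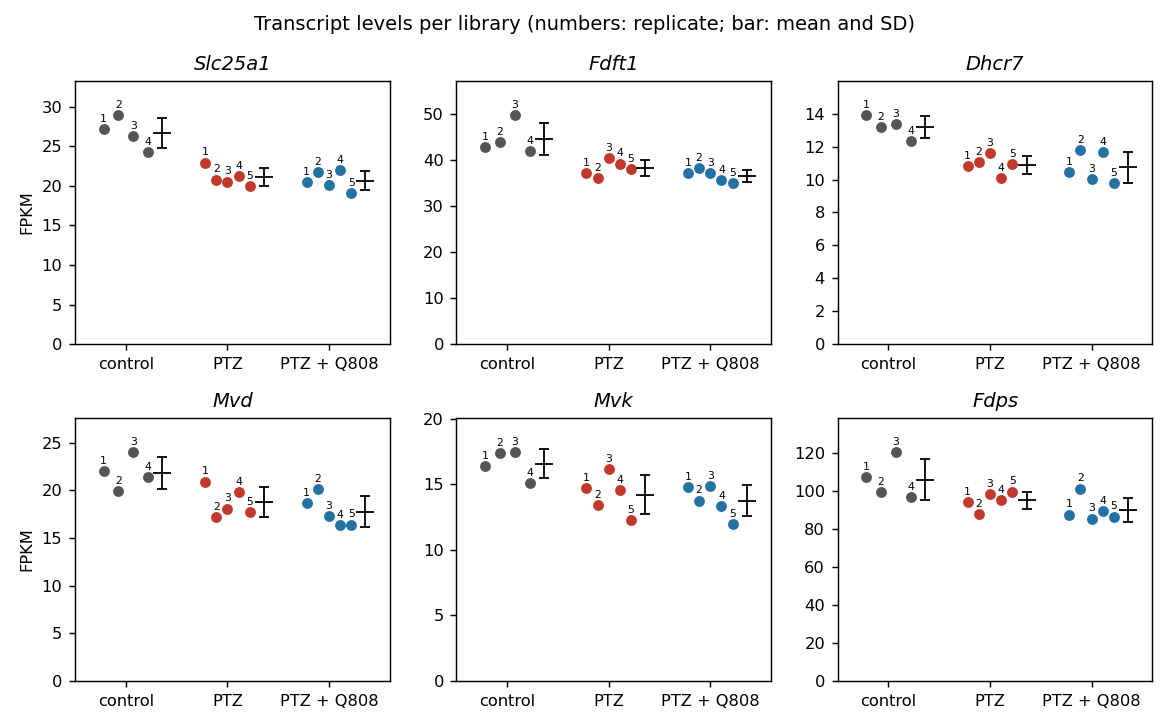
Each panel plots FPKM from 0 for 1 gene, with 1 point per library numbered by replicate and a bar for the mean and SD of each group. For Slc25a1, Fdft1 and Dhcr7 the 4 control points lie above all 10 others, while for Mvd, Mvk and Fdps control and exposed points overlap.

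Of the 11 genes of the lower pathway, from squalene to cholesterol, Fdft1 and Dhcr7 fell in PTZ + Q808 versus control. All 11 means were lower in PTZ than in control and 10 of 11 in PTZ + Q808, with median log2 changes of -0.11 and -0.15. The sterol reductase gene Tm7sf2 had the lowest value of all members in PTZ versus control (-0.34, 13.6 ± 1.44 to 10.6 ± 1.66 FPKM, SD, limma adjusted p = 0.514). Msmo1 had values of -0.15 in both PTZ and PTZ + Q808, and the sterol dehydrogenase gene Nsdhl of -0.11 and -0.18. Squalene epoxidase gene Sqle, the 1 member of this block with a higher mean in PTZ + Q808, was at 0.03, and Cyp51 at -0.05. Lanosterol synthase gene Lss was 11.7 ± 1.36 FPKM in control, 11.4 ± 1.57 in PTZ and 9.51 ± 2.57 in PTZ + Q808. Its lowest library was PTZ + Q808 replicate 3 (6.04 FPKM). Ebp, Sc5d and Hsd17b7, which act on later ring intermediates, had log2 changes between -0.11 and -0.03 in both comparisons.

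None of the 6 genes in the SREBP control block passed in limma in any of the comparisons. They are Srebf1 and Srebf2, which encode SREBP itself, and Scap, Insig1, Insig2 and Stard4. At an unadjusted p under 0.05 only Scap was found, in PTZ + Q808 versus control (29.5 ± 0.208 to 27.4 ± 0.799 FPKM, log2 change -0.10, adjusted p = 0.175), where no library overlapped the controls. Srebf1, the factor that acts mostly on fatty acid genes, had values of -0.22 in PTZ and -0.20 in PTZ + Q808 against control. Srebf2, the factor that acts mostly on sterol genes, had values of -0.09 and -0.13. Insig2 (0.02 and 0.06) and Stard4 (0.03 and -0.003) stayed within 0.1.

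Insig1 and Idi1 went the other way from most members, and their libraries were chosen for description after the values were seen. Insig1 held 30.4, 28.7, 32.4 and 27.3 FPKM in control. It held 26.9, 25.8, 28.6, 48.3 and 29.7 in PTZ and 42.1, 30.5, 42.5, 27.9 and 40.9 in PTZ + Q808. PTZ replicate 4 and PTZ + Q808 replicates 1, 3 and 5 were above 40 FPKM, and the other 6 exposed libraries were within or near the control range. Idi1, the isopentenyl diphosphate isomerase gene, held 12.1, 12.3, 9.86 and 8.36 FPKM in control, 11.8, 9.80, 9.996, 19.95 and 12.9 in PTZ, and 14.7, 15.001, 18.7, 11.9 and 17.2 in PTZ + Q808. Its 3 highest libraries were PTZ replicate 4 and PTZ + Q808 replicates 3 and 5. The log2 change in PTZ + Q808 versus control was 0.50 for Idi1 (SE 0.181, limma adjusted p = 0.136) and 0.28 for Insig1 (SE 0.168, adjusted p = 0.366). In PTZ versus control the values were 0.22 and 0.06, and without PTZ replicate 4 they were 0.06 and -0.09.

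Fos, an immediate early gene transcribed after neuronal firing, was set beside Insig1 and Idi1 after the values were seen. Fos was 175 FPKM in PTZ replicate 4 and 127, 126 and 142 FPKM in PTZ + Q808 replicates 1, 3 and 5. It was 26.96 to 113 FPKM in the other 6 exposed libraries and 11.2 to 23.4 FPKM in control. Thus the 4 exposed libraries highest in Fos were the 4 highest in Insig1. PTZ replicate 3, next in Fos at 113 FPKM, held 28.6 FPKM of Insig1 and 9.996 of Idi1. The match was less close for Idi1. PTZ + Q808 replicate 2, with 38.2 FPKM of Fos, held 15.001 FPKM of Idi1, above the 14.7 of PTZ + Q808 replicate 1. The part of the match with Fos in the group differences was not tested.

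**Figure D3:**
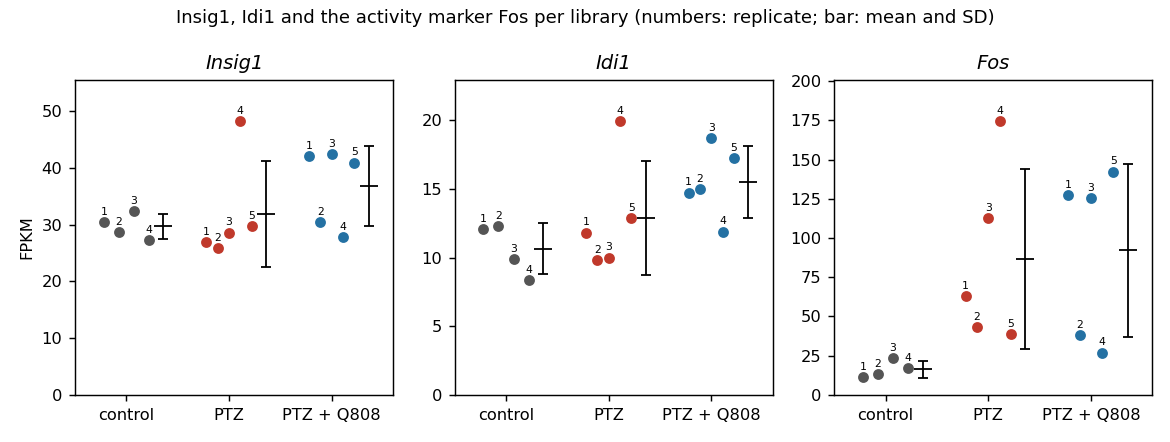
FPKM per library for Insig1, Idi1 and Fos, with points numbered by replicate and a bar for the mean and SD of each group. PTZ replicate 4 and PTZ + Q808 replicates 1, 3 and 5 are the highest exposed libraries in the Insig1 and Fos panels.

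Acetyl-CoA and fatty acid genes had lower means in all 7 tested members in both comparisons with control, with median log2 changes of -0.15 in PTZ and -0.18 in PTZ + Q808. Besides Slc25a1, 0 passed. Fasn, the fatty acid synthase gene, was added after its values were seen. It held 47.7, 49.0, 47.3 and 47.5 FPKM in control, 45.9, 44.1, 43.8, 38.5 and 42.1 in PTZ, and 43.2, 29.3, 40.3, 42.9 and 36.4 in PTZ + Q808. Controls were tightly grouped above all exposed libraries, and exposed libraries spread more widely. The log2 change was -0.16 in PTZ (limma adjusted p = 0.69) and -0.32 in PTZ + Q808 (adjusted p = 0.0735). The acetyl-CoA synthetase gene Acss2 had values of -0.15 and -0.18, and all 5 PTZ libraries were below all controls. The acetoacetyl-CoA synthetase gene Aacs had values of -0.18 and -0.26, the desaturase gene Scd of -0.14 and -0.15, and Acly, which splits citrate, of -0.02 and -0.10. The acetyl-CoA carboxylase gene Acaca had values of -0.02 and -0.17. Elovl6, untested, was 0.763 ± 0.116 FPKM in control, 0.733 ± 0.306 in PTZ and 0.653 ± 0.195 in PTZ + Q808.

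Q808 within the seizure model gave no called member. In PTZ + Q808 versus PTZ 0 of 31 members passed in limma (0% of all genes were called), and 0 of 31 had an unadjusted p under 0.05, against 6.14% of all genes. With voom weights on recovered reads 0 members passed as well. Means were lower for 18 members, against 51.7% of all genes, and higher for 13, with a median log2 change of -0.03. The 3 genes that fell against control were close in both exposed groups. The log2 change from PTZ to PTZ + Q808 was -0.03 for Slc25a1 (95% confidence interval -0.15 to 0.09), -0.06 for Fdft1 (-0.17 to 0.05) and -0.02 for Dhcr7 (-0.15 to 0.11). Most members had intervals within 0.4 of zero, and the exceptions were Lss (-0.59 to 0.06), Idi1 (-0.09 to 0.64) and Insig1 (-0.12 to 0.56). Fasn was lowest in p, with a log2 change of -0.16 (-0.35 to 0.02, adjusted p = 0.828), and without PTZ + Q808 replicate 2 it was -0.07. All 7 tested acetyl-CoA and fatty acid genes had lower means in PTZ + Q808 than in PTZ, with log2 changes of -0.16 to -0.01. Of 18 sterol pathway genes 8 had lower and 10 higher means, near the share over all genes. PTZ + Q808 replicate 2 was the lowest of the 14 libraries for Fasn, Acaca and Acly and the highest for Hmgcs1 and Sqle. These counts were not made without it.

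**Figure D4:**
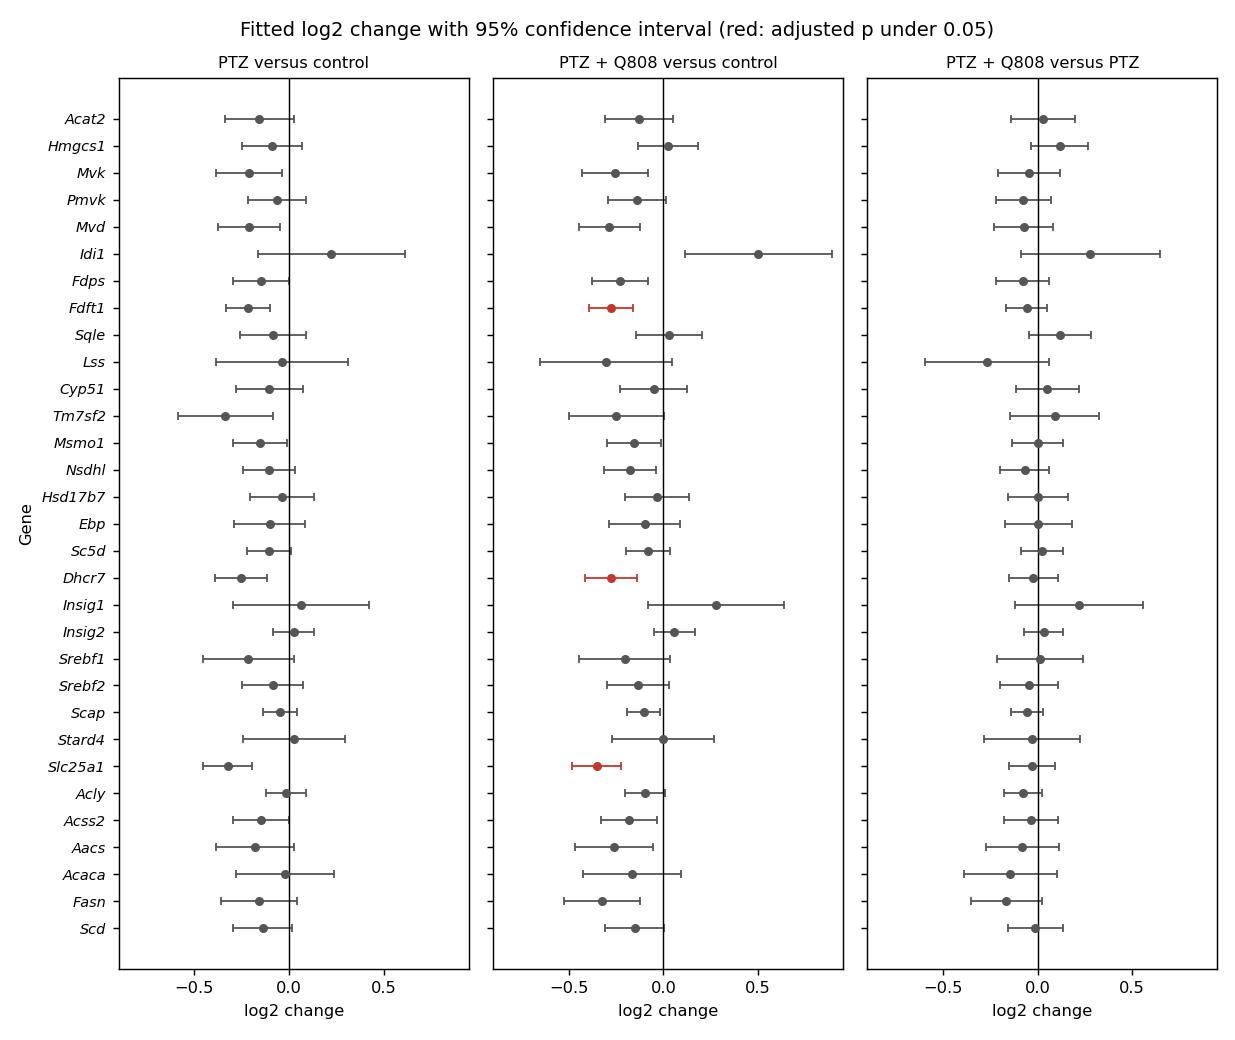
Points are fitted log2 changes of the 31 tested genes in 3 comparisons, with bars for the 95% confidence interval. Red marks Fdft1, Dhcr7 and Slc25a1, the genes with an adjusted p under 0.05, all in PTZ + Q808 versus control, and in PTZ + Q808 versus PTZ every interval includes 0.

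Neighbouring genes of lipid metabolism were counted from 4 lists. None of them passed in limma in any comparison. Among 17 genes of sterol transport and turnover, 12 had lower means in PTZ + Q808 than in control (median log2 change -0.06). An unadjusted p under 0.05 was found for 5 with lower and 1 with higher means, against 10.7% and 10% of all genes. Lowest in p were Npc1, which moves cholesterol out of lysosomes (-0.37, adjusted p = 0.0655), and the lipid transfer gene Stard3 (-0.18, 0.115). Npc1 was close to control in PTZ, at 17.6 against 18.0 FPKM, and 13.7 FPKM in PTZ + Q808. Among 20 tested genes of fatty acid elongation and lipid assembly, 14 had lower means (median -0.10), and 4 with lower and 1 with higher means had an unadjusted p under 0.05. The fatty acyl-CoA ligase gene Acsl4 had a value of 0.32 (adjusted p = 0.0813) and Scd2 of -0.28 (0.0857, 750 to 617 FPKM). Of 9 SREBP processing genes 5 had higher means (median 0.10), and an unadjusted p under 0.05 was found for 3 with higher and 2 with lower means. Higher were the membrane protein gene Pgrmc1 (0.27, adjusted p = 0.086), Rnf139, which encodes a ubiquitin ligase of the endoplasmic reticulum (0.18, 0.092), and the site-2 protease gene Mbtps2 (0.28, 0.0959). The 2 with lower means are not named here, and changes in this list ran from -0.24 to 0.28. Of 11 tested genes of the isoprenoid branches, 6 had lower means (median -0.05), and 0 with lower and 2 with higher means had an unadjusted p under 0.05, Pggt1b (0.23, 0.193) and Pdss1 (0.25, 0.233).

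Markers of other cell types also differed in mean between groups, and 0 of them passed the test. Over all genes, means were lower than control for 53.7% in PTZ and for 55.3% in PTZ + Q808. All 12 markers of myelinating oligodendrocytes, Mag and Mbp among them, had lower means in PTZ than in control and 11 of 12 in PTZ + Q808, with median log2 changes of -0.23 and -0.38. Their mean log2 level per library ranged from 7.01 to 7.98 in control, from 7.06 to 7.66 in PTZ and from 6.68 to 7.55 in PTZ + Q808. Within control it was highest in replicates 2 (7.98) and 1 (7.79), against 7.22 and 7.01 in replicates 3 and 4. With this mean as a covariate, Slc25a1 (-0.30, limma adjusted p = 0.0257) and Fdft1 (-0.29, 0.033) passed in PTZ + Q808 versus control. Dhcr7 did not (-0.22, 0.0734). Markers of newly formed oligodendrocytes and precursors had lower means in 5 of 5 genes in PTZ and 4 of 5 in PTZ + Q808. Their median log2 changes were -0.15 and -0.25. Enpp6 was lowest among them, at -0.52 and -0.48 (limma adjusted p = 0.514 and 0.155). Astrocyte markers had lower means in 6 of 7 genes in both comparisons, and their range overlapped between groups (6.95 to 7.15 in control, 6.74 to 7.11 in PTZ and 6.79 to 7.19 in PTZ + Q808). Neuron markers had higher means in 6 of 6 genes in PTZ (median 0.09) and in 3 of 6 in PTZ + Q808 (median 0.05). Markers of meninges and fibroblasts (Col1a1, Col1a2, Col3a1, Dcn, Mgp and Lum) had higher means in 6 of 6 genes in both, with median log2 changes of 0.46 and 0.64. In PTZ + Q808, 2 of the 6 had a higher mean at an unadjusted p under 0.05, against 10% of all genes. Their mean log2 level was 2.70 to 2.97 in control, 2.52 to 4.55 in PTZ and 2.53 to 4.30 in PTZ + Q808. It was high in PTZ replicates 1 (4.55) and 2 (3.73) and in PTZ + Q808 replicates 1 (4.22), 2 (4.002) and 3 (4.30), and the other 5 exposed libraries lay between 2.52 and 3.08. The part of oligodendrocyte precursor, astrocyte, neuron and meningeal RNA in the results was not tested.

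**Figure D5:**
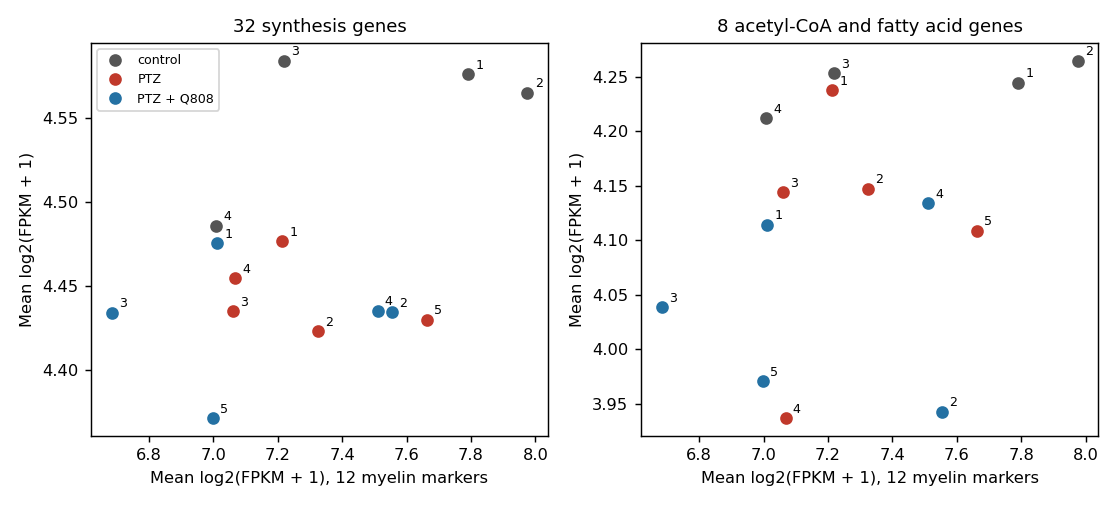
Each point is 1 library, numbered by replicate, with the mean log2(FPKM + 1) of 12 myelin markers on the x axis and that of all 32 synthesis genes (left) or the 8 acetyl-CoA and fatty acid genes (right) on the y axis. In the left panel control replicate 3, at 7.22 on the x axis, is highest (4.58). Control replicate 4 is the lowest control on both axes (7.01 and 4.49), and all 10 exposed libraries lie at or below 4.48. In the right panel PTZ replicate 1 (4.24) lies within the control range.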

How the data were processed

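Gene levels of 14 hippocampal libraries were deposited as FPKM, which the authors computed per gene and library. Per the submitters' processing notes the tools, named without role or version, included HISAT2, StringTie, Cufflinks and HTSeq. The build was not given in the sources used here. The design text counts rats per group, and p-values measure the spread between these libraries.

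Symbols turned into dates (12) were read through gene identifiers. Genes with at least 1 FPKM in at least 4 libraries (12744) were tested as log2(FPKM + 1), all 3 groups together, with limma 3.58.1 (trend, R 4.3.3, 11 residual degrees of freedom), two-sided, and Benjamini-Hochberg adjustment over all genes. A fold on this scale understates the change of low genes. The fit was tested on simulated data, and figures were drawn with matplotlib 3.10.9. Whole reads were sought from the steps between FPKM values (tolerance 0.1 of a read), since a gene's values in a library are multiples of 1 read. They were recovered for 12743 of 12744 genes and gave 15144250 to 18346327 reads per library over these genes. Relative depth was found before the reads, from ratios of low FPKM values to those of control replicate 1. The reads served for limma's voom as an alternative.

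The members and lists were chosen with earlier results of these data known. Values per library are given for members called in any comparison, then by smallest p in the PTZ-exposed average up to 6. Per-library values of Fasn, Idi1, Insig1 and Fos and the choice of printed promoters were added after the data were seen. Alternatives changed the pseudocount, filter, scaling, weights, covariates, replicate block, groups fitted and libraries. Same-numbered libraries did not deviate together, as given in the closing part. Values of some single genes of the other lists are not reported here.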

Additional observations from a re-analysis of the deposited data

Results flagged for a closer look

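Within groups, 7 of 96 sets of replicates (7.29%) held 1 library far from the others by Dixon's criterion, and chance gives about 1 in 20. In PTZ replicate 4, Hmgcs1 was 123 FPKM, against 101 to 103 in the other PTZ libraries, Insig1 was 48.3, against 25.8 to 29.7, and Aacs was 15.3, against 17.2 to 17.8. In PTZ + Q808 replicate 2, Fdps was 101 FPKM, against 85.3 to 89.3, Nsdhl was 17.7, against 14.4 to 15.1, and Acly was 60.3, against 64.3 to 65.8. In control replicate 3, Pmvk was 52.2 FPKM, against 41.2 to 42.2.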

How the results depend on the processing

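Over all alternatives the median log2 change of the members kept its sign in each comparison and moved by less than the spread between replicates (SD 0.0413). The count of members called moved more. In PTZ + Q808 versus control (3 called) it was 1 with only the 2 groups fitted, 8 with weights per library, 0 without the 3 libraries low in Ttr, 0 without the 2 libraries with transcripts of other tissue, and 0 to 6 with 1 library left out. In the PTZ-exposed average (2 called) it was 1 with median-of-ratios scaling, 4 with weights, 1 with the myelin covariate, 0 without either set of doubted libraries, and 0 to 3 with 1 library left out. In PTZ versus control it was 1 with the Y-linked term, where 8 were called over all genes, against 4 in the main fit. The cause was not tested. Over all genes the 366 calls of PTZ + Q808 versus control became 190 without a filter, 197 with 2 groups, 564 with the Y-linked term, 1100 with weights, 57 without the 2 libraries of other tissue, 0 without the 3 low in Ttr, and 17 to 673 with 1 library left out. The 79 calls of the average became 61 with median-of-ratios scaling, 522 with weights and 42 with the myelin covariate. They became 28 and 4 without these 2 sets of libraries, and 2 to 149 with 1 library left out.

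With the replicate block the count was 0 in PTZ + Q808 versus control and 0 in the average, and 4 genes were called over all genes in each. Of 13 same-numbered pairs, 2 had a correlation of deviations over 0.1 (range -0.28 to 0.143), and 0 of 14 libraries correlated best with their own number. The sign turned for Insig1 in PTZ versus control with the myelinating oligodendrocyte list as covariate (log2 change -0.0198). With 1 library left out, values ranged from -0.0933 (without PTZ replicate 4) to 0.126 for Insig1 there, and in PTZ + Q808 versus PTZ from -0.0539 to 0.00795 for Dhcr7 and from -0.0928 to 0.00175 for Mvk. Reads behind Elovl6 (12 to 47 per library) limit what its level can show.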

Other observations

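PTZ + Q808 replicate 2 held opposite extremes of these genes. It was the lowest of the 14 libraries for Fasn (29.3 FPKM), Acaca (8.79), Acly (60.3), Srebf1 (11.1), Srebf2 (42.4) and Scap (26.1). It was the highest of the 14 for Hmgcs1 (130) and Sqle (46.8). Its depth relative to control replicate 1 was the lowest, at 0.858, and the part of depth in these values was not tested. The library was singled out after its values were seen.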
